A study of Mus musculus with 18 samples.

Results

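The Schlafen segment of mouse chromosome 11 was described across 18 RNA sequencing libraries of 3T3-L1 adipocytes. Its members were chosen by position on build mm9. They are the gene models of the deposited count table that lie wholly between 82.76 and 83.015 Mb of chromosome 11 and hold at least 20 counts over the 18 libraries. The rule gave 7 of 27473 gene models. An eighth model inside the segment, uc007koi.1, held 2 counts and was left out, and uc007knw.1 (19 counts) and uc007kok.1 (49 counts) reach across its ends. The table names gene models by UCSC known-gene identifiers without symbols, and 0 of these identifiers occurred in the name tables used here. The name Schlafen therefore rests on the position alone. It was not checked further, and no gene model is given a gene name or a role.

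Schlafen genes form a family found in mammals, and in mouse most of them lie side by side in a cluster on chromosome 11. Their proteins share a core domain that in several members binds or cleaves RNA, and the longer members carry a helicase-like part as well. Several mouse Schlafen genes are known to be induced by type I interferon and by bacterial products in macrophages. Mouse Slfn2 is known for keeping T cells quiescent, and human SLFN11 limits the translation of viral proteins. IRF3 is a transcription factor that is activated downstream of Toll-like receptor 4 and of sensors of viral nucleic acid, and it drives interferon genes through interferon-stimulated response elements. In the RefSeq annotation of GRCm38.p6, another build than that of the counts, the Schlafen genes of chromosome 11 are listed in the order Slfn5, Slfn9, Slfn8, Slfn10-ps, Slfn2, Slfn1, Slfn4, Slfn3 and Slfn14, with the antisense gene Slfn5os beside Slfn5.

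The cells were 3T3-L1, a mouse fibroblast line that can be turned into adipocytes, used here after differentiation at passage 15. All 6 groups carried a lentivirus for 6 days, and each holds 3 libraries. Irf3_2D cells were labelled as overexpressing Irf3, and the meaning of 2D is not explained. Their control group carried a green fluorescent protein vector (EGFP). In the other arm, shIrf3 cells carried a knockdown vector for Irf3 and shLuc cells its control, and both were also grown in lipopolysaccharide (LPS), from the outer membrane of bacteria that Toll-like receptor 4 detects. For the LPS groups, shIrf3_LPS and shLuc_LPS, the labels of knockdown cells give 6 more days in LPS. How long the cells without LPS were kept is not stated, and the effect of LPS cannot be told apart from that of extra culture time. The cells are from 1 line, and neither the promoters of the vectors nor the hairpin sequences are given in the sources used here. No label states that the 3 libraries of a group are separate cultures, so p-values reflect only how these libraries varied, and that variation could be technical. In such bulk RNA, fewer cells of a type and less RNA per cell cannot be told apart. Without symbols, neither the level of Irf3 nor adipocyte markers could be read, so the labels were not checked against them.

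To show the regulatory sequence of the family that the segment is named for, RefSeq promoter windows were searched for 3 motifs. RefSeq windows of 300 bases, from 250 bases before to 50 after the start site on GRCm38.p6, were at hand for 9 of the 10 Schlafen genes, in 10 windows. The letters GAAA followed by any 2 bases and GAAA again, the core of an interferon-stimulated response element, occurred on either strand in 4 of the 10 windows, those of Slfn5, Slfn9 and both starts of Slfn8, against 3.44% of 32851 windows of all genes. The windows of Slfn8 overlap and hold the same site, so the 4 windows hold 3 distinct sites. The shorter spacing, GAAANGAAA, occurred in 1 of the 10, that of Slfn4, against 3.17% of all windows. The letters TTCNNNGAA, which some STAT factors bind, occurred in 0 of the 10, against 8.3% of all windows. No match of any of the 3 motifs overlapped a match of another in the Schlafen windows. A match is a description of the letters. No window was tied to a gene model of the count table, since positions on the builds were not compared. The 3 windows below hold the match of each gene to the first of these motifs in capitals, 5′ to 3′ on the strand of the gene. In Slfn9 and Slfn8 the capitals show the match as its reverse complement, and those 10 letters are the same in both genes. Much of the sequence around them is alike in both genes too, so these sites are not independent. The match of Slfn5 runs into a stretch of A. Whether the windows hold more matches than those of other genes was not tested.
Slfn5, chr11:82951852-82952151, plus strand: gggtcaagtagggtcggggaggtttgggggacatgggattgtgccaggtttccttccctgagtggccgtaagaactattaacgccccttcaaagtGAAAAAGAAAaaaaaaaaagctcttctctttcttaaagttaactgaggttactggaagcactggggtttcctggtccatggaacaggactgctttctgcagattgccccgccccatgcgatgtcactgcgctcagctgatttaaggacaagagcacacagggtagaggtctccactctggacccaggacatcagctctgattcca
Slfn9, chr11:82991781-82992080, minus strand: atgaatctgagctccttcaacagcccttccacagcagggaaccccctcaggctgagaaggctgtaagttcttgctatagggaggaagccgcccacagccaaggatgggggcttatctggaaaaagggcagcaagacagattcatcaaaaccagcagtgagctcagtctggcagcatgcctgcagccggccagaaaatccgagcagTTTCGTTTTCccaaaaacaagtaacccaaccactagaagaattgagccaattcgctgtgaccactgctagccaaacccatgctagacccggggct
Slfn8, chr11:83020761-83021060, minus strand: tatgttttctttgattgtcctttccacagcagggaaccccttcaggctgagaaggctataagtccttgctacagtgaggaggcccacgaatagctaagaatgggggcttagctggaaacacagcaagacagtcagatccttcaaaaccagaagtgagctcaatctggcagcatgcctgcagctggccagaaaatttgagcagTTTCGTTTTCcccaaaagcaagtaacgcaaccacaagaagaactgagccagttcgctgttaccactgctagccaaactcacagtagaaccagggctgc

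The 7 gene models lie apart from each other except for 1 pair. From the lower end, uc007kny.1 (chr11:82765604-82778352, plus strand, 6 exons) is followed by 3 gene models on the minus strand with 6 exons each. These are uc007kob.1 (chr11:82793805-82805332), uc007kod.2 (chr11:82815660-82834312) and uc007koe.1 (chr11:82841630-82854035). Next comes uc007kog.1 (chr11:82878614-82884180, plus strand, 2 exons), whose span overlaps that of uc007koh.1 (chr11:82879254-82884748, minus strand, 3 exons). Their exons share 0 bases, but the libraries do not mark the strand, so reads of uc007kog.1 RNA that run into the exons of uc007koh.1 cannot be told apart from its own. The last is uc007koj.1 (chr11:82988688-83003718, plus strand, 8 exons). Exons of uc007kny.1 share 53 bases with uc007knw.1, which held 19 counts. How reads that match several similar genes were counted is not given in the sources used here, so members with alike sequence may have lost or exchanged reads.

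**Figure D1:**
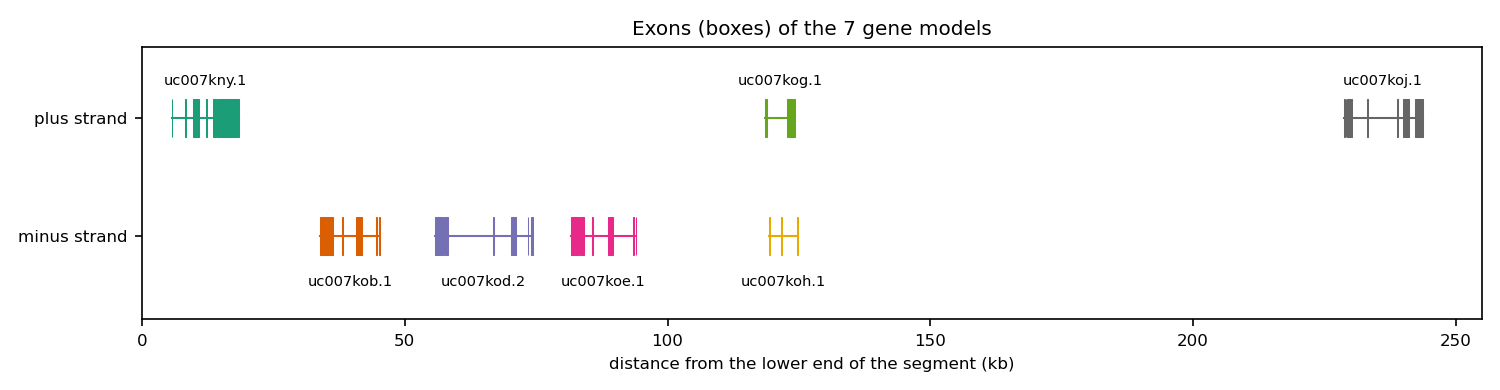
Exons of the 7 gene models by strand, as boxes to scale joined by a line, against the distance from the lower end of the segment in kb. Only uc007kog.1 and uc007koh.1 lie over each other, on opposite strands.

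Depth ran from 22143302 to 34368259 counts per library. Counts were scaled to counts per 1000000 (CPM) with edgeR's TMM factors, separately in the arm of 6 libraries (Irf3_2D and EGFP) and in the arm of 12 libraries (the shIrf3 and shLuc groups). Some libraries stood apart. EGFP replicate 1 was well above the other EGFP libraries for several members, and shIrf3 replicate 2 and shLuc replicate 2 were above the other libraries of their groups for the 3 most abundant members. The shLuc libraries also differed from each other. A chi-square test over gene models with a count of at least 20 in the pair gave 55.9 to 349.9 per degree of freedom for their pairs. In the other 3 groups of that arm it gave 3.38 to 15.6. In the same test Irf3_2D replicate 2 differed from the other 2 of its group with 111.8 and 91.7, which differed from each other with 10.8. Mitochondrial gene models held 14.2%, 2.88% and 5.19% of the counts in shLuc replicates 1, 2 and 3. The part of these differences in the results was not tested, and values without such a library are given beside the main results that it moves.

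Summed over the 7 members, the level was 173, 194 and 157 CPM in Irf3_2D, against 56.6, 20.1 and 16.6 CPM in EGFP. In the other arm the sum was 40.4, 39.1 and 43.4 CPM in shIrf3_LPS, 37.6, 33.6 and 38.4 CPM in shLuc_LPS, 17.0, 27.9 and 18.3 CPM in shIrf3 and 19.9, 30.5 and 23.8 CPM in shLuc. Every Irf3_2D library was thus above every EGFP library, and every library with LPS was above every library without it, whichever hairpin it carried.  Of the member counts, uc007kod.2 held 45.0% to 47.6% in Irf3_2D, against 13.4% to 38.1% in EGFP, where the highest was EGFP replicate 1. For uc007kob.1 the share was 3.98% to 12.8% in Irf3_2D, against 16.1% to 19.9% in EGFP.

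**Figure D2:**
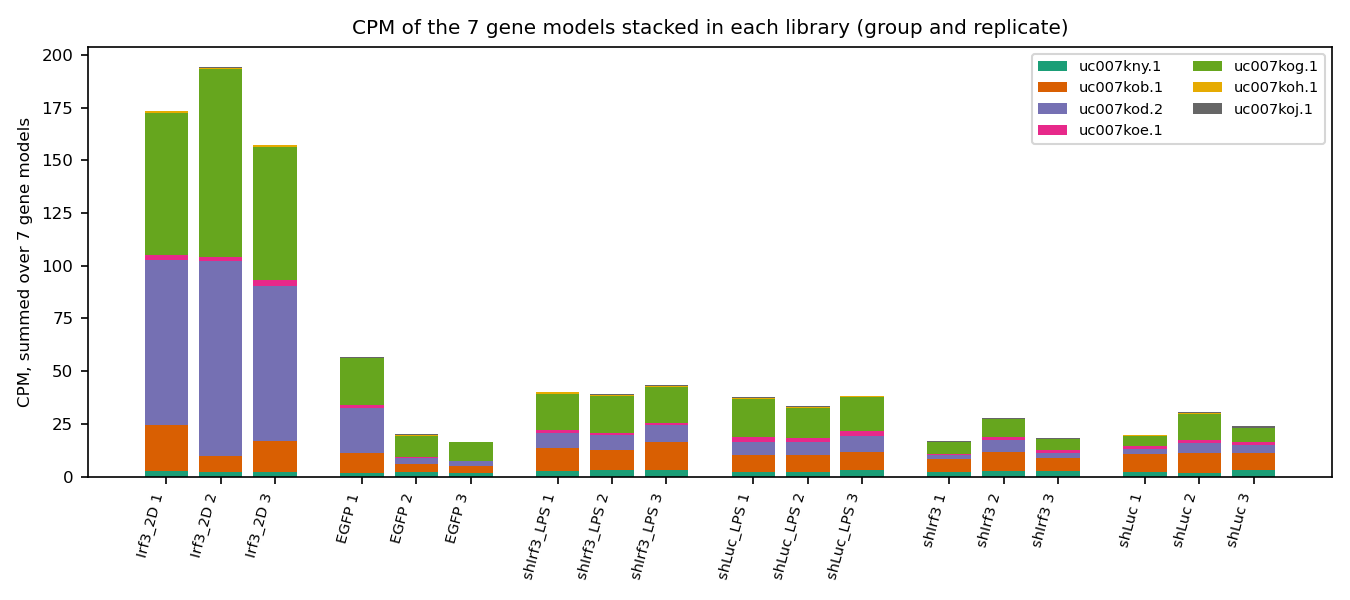
CPM of the 7 gene models stacked for each library, with libraries by group and replicate on the x axis. The sums are 157 to 194 CPM in Irf3_2D, against 16.6 to 56.6 CPM in EGFP, and 33.6 to 43.4 CPM with LPS, against 17.0 to 30.5 CPM without it.

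Levels of different members were compared per length, as CPM per kb of exon. In Irf3_2D, uc007kog.1 had the highest mean level at 44.0 ± 8.31 CPM per kb (SD, n = 3), followed by uc007kod.2 at 20.3 ± 2.45 and uc007kob.1 at 3.65 ± 1.78 CPM per kb. In EGFP the same 3 had the highest means in the same order, at 8.22 ± 4.54, 2.23 ± 2.73 and 1.34 ± 0.794 CPM per kb, and there uc007kod.2 and uc007kob.1 did not differ beyond their spread. In EGFP replicate 1 uc007kod.2 was above uc007kob.1 (5.38 against 2.25 CPM per kb). It was below uc007kob.1 in replicate 2 (0.763 against 0.952) and replicate 3 (0.551 against 0.813). In the 4 groups of the other arm uc007kog.1 was again first, between 10.4 ± 0.0346 CPM per kb in shIrf3_LPS and 3.87 ± 1.07 CPM per kb in shIrf3. There the second place was held by uc007kob.1, with 2.76 ± 0.497 CPM per kb in shIrf3_LPS and 2.06 ± 0.0687 in shLuc_LPS, ahead of uc007kod.2 with 1.90 ± 0.130 and 1.62 ± 0.242. Without LPS, uc007kob.1 had 1.81 ± 0.404 CPM per kb in shIrf3 and 2.14 ± 0.148 in shLuc, and uc007kod.2 had 0.780 ± 0.506 and 0.903 ± 0.302. The lowest in every group was uc007koj.1, with means from 0.0571 to 0.122 CPM per kb.

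**Figure D3:**
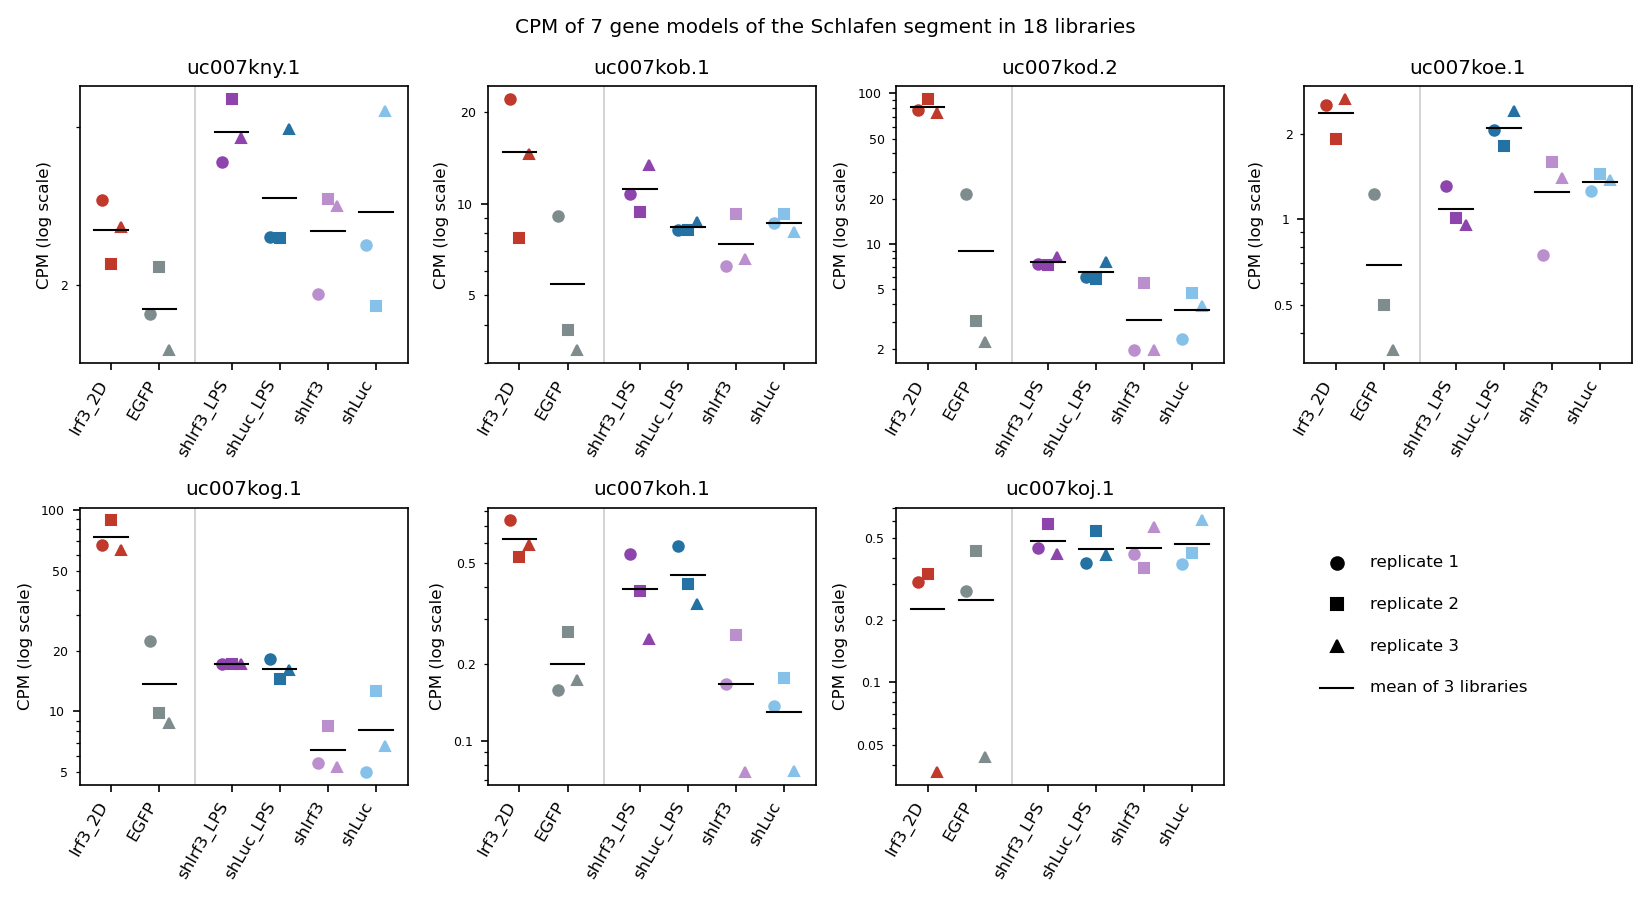
CPM of each gene model in the 18 libraries on a log axis, one panel per model, with symbols for replicates and a bar for the group mean. The grey line parts the arms, which were scaled separately. The Irf3_2D points of uc007kod.2 lie at 73.6 to 92.5 CPM, and all points of the other 5 groups at 1.95 to 21.6 CPM.

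The first comparison asks how the segment differed between cells labelled as overexpressing Irf3 and cells with the control vector. The most abundant member, uc007kog.1, rose in Irf3_2D, and all 6 members tested had a positive log2 fold change, with a median of 1.69 against 0.02 over the 13931 gene models tested. A positive value was found for 53.6% of all of these. The threshold for a call was a p under 0.05 in the quasi-likelihood test of edgeR after Benjamini-Hochberg adjustment over all gene models. Of the 6 members 1 was called higher and 0 lower, against 0.811% of all gene models called higher and 0.639% called lower. In 5 of the 6 every Irf3_2D library was above every EGFP library, against 8.24% of all gene models. The remaining member, uc007koj.1, held 10, 7 and 1 counts in Irf3_2D, against 7, 13 and 1 in EGFP, and was below the low-count filter in this arm.

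For uc007kog.1 the level was 67.2, 89.0 and 63.3 CPM in Irf3_2D, against 22.4, 9.85 and 8.80 CPM in EGFP. The groups did not overlap, and EGFP replicate 1 was the highest of its group. The fitted log2 fold change was 2.42 with a standard error of 0.33, or 5.35-fold higher (edgeR adjusted p = 0.018). The call ended without Irf3_2D replicate 1 (log2 fold change 2.48, edgeR adjusted p = 0.0604), Irf3_2D replicate 2 (2.25, 0.111), EGFP replicate 2 (2.22, 0.142) and EGFP replicate 3 (2.18, 0.0875), and it held without Irf3_2D replicate 3 (2.51, 0.0409) and without EGFP replicate 1 (2.97, 0.000129).

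The largest fitted difference among the members was that of uc007kod.2, which was at 78.1, 92.5 and 73.6 CPM in Irf3_2D, against 21.6, 3.06 and 2.21 CPM in EGFP. All Irf3_2D libraries were above all EGFP libraries, and EGFP replicate 1 was well above the other 2 EGFP libraries. With a 95% interval from 1.39 to 4.99, the log2 fold change of 3.19 was not called (edgeR adjusted p = 0.124). Without EGFP replicate 1 it was 4.94 with a standard error of 0.23 and was called (edgeR adjusted p = 2.98e-05). DESeq2 called it with all 6 libraries, at 3.18 (DESeq2 adjusted p = 0.0345). In edgeR no other left-out library gave a call. The value was 3.22 without Irf3_2D replicate 1 (edgeR adjusted p = 0.47), 2.76 without EGFP replicate 2 (0.325) and 2.725 without EGFP replicate 3 (0.204). It was also not called with the replicate block, at 3.87 (edgeR adjusted p = 0.11).

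Groups without overlap were also seen in uc007koe.1, at 2.51, 1.92 and 2.65 CPM in Irf3_2D, against 1.22, 0.499 and 0.347 CPM in EGFP. Its log2 fold change of 1.78 was not called in edgeR (adjusted p = 0.0754), was called without EGFP replicate 1 at 2.46 (edgeR adjusted p = 0.00622) and without Irf3_2D replicate 2 at 1.89 (edgeR adjusted p = 0.00954), and was called by DESeq2 at 1.77 (DESeq2 adjusted p = 0.00201). The level of uc007kob.1 was 22.1, 7.72 and 14.5 CPM in Irf3_2D, against 9.13, 3.86 and 3.29 CPM in EGFP. These groups overlapped, since Irf3_2D replicate 2 was below EGFP replicate 1. Its log2 fold change of 1.45 was not called (edgeR adjusted p = 0.209), and it was 2.05 and called without EGFP replicate 1 (edgeR adjusted p = 0.0444). The other left-out libraries gave no call for uc007koe.1 or uc007kob.1.

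Irf3_2D replicate 2 held the lowest level of uc007kob.1 in its group and the highest of uc007kod.2 and uc007kog.1, so the members did not order these libraries alike. The low-count member uc007koh.1 had 24, 11 and 16 counts in Irf3_2D, against 4, 8 and 4 in EGFP, which corresponds to 0.736, 0.527 and 0.589 CPM against 0.158, 0.266 and 0.173 CPM. Its log2 fold change of 1.6 was not called (edgeR adjusted p = 0.0981), and it was called without Irf3_2D replicate 2 at 1.69 (edgeR adjusted p = 0.0495). The other left-out libraries gave no call for it. In uc007kny.1 the groups were close, at 2.48, 2.11 and 2.32 CPM in Irf3_2D, against 1.86, 2.10 and 1.69 CPM in EGFP. Its log2 fold change of 0.29, with a 95% interval from -0.17 to 0.75, was not called (edgeR adjusted p = 0.74).

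Without EGFP replicate 1, edgeR called 4 of the 6 members tested higher, against 1.93% of all gene models called in either direction. With DESeq2 and all libraries it was 3 of 6, against 3.45% of all. Without Irf3_2D replicate 2 it was 2 of 6, against 7.18% of all, and without Irf3_2D replicate 3 it was 1 of 6, against 0.388%. Without Irf3_2D replicate 1, EGFP replicate 2 or EGFP replicate 3, in that order, it was 0 of 6, where 0.0918%, 0.0496% and 0.0351% of all gene models were called. All 6 log2 fold changes remained positive whichever library was left out. Of the 6 nearest gene models that were not members and held at least 20 counts, 3 on each side, uc007kok.1 starts inside the segment and was not tested. The 4 that were tested lie outside it, 0 were called, and their log2 fold changes ran from -0.50 to 0.16. The upper side rests on uc011ybf.1 alone, since uc011ybg.1 (20 counts) was not tested either.

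**Figure D4:**
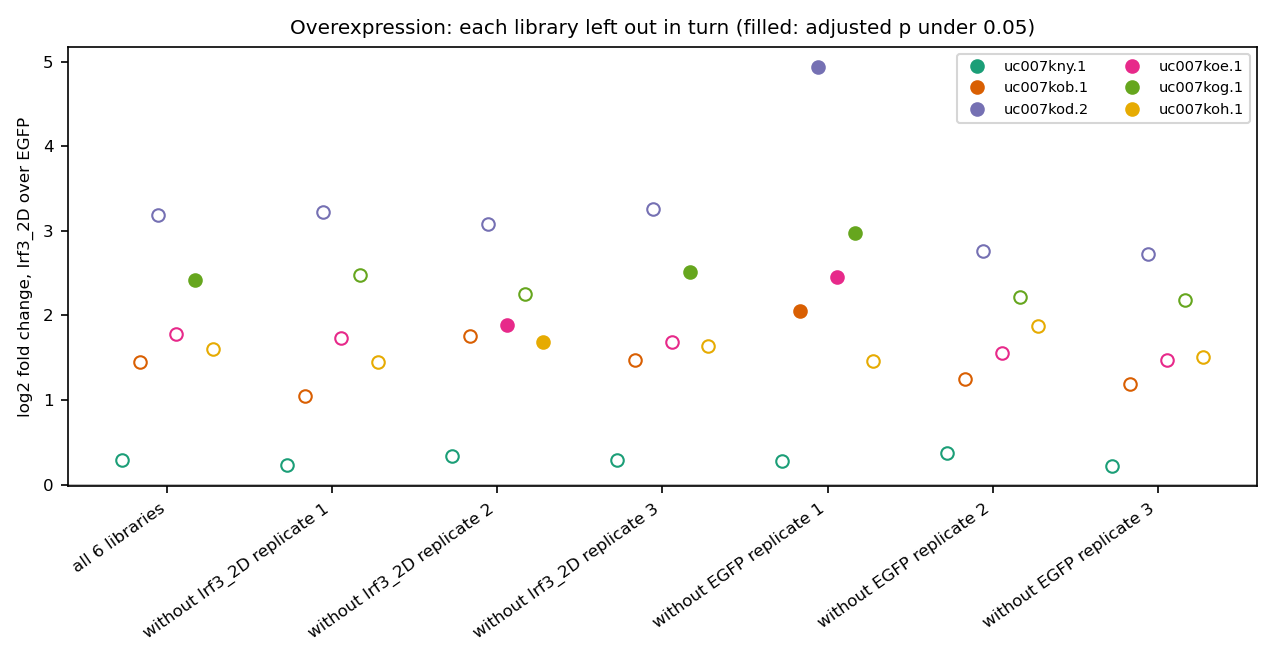
Log2 fold change of the 6 gene models tested, Irf3_2D over EGFP, with all 6 libraries and with each library left out in turn. Filled points had an edgeR adjusted p under 0.05. The point of uc007kod.2 moves to 4.94 from 3.19 without EGFP replicate 1, and all points lie above 0.

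Knockdown of Irf3 without LPS asks whether the segment differed between hairpins in cells that were not stimulated. In edgeR 0 of the 7 members were called, against 8.56% of 14970 gene models, and in DESeq2 0 of the 5 that got an adjusted p, against 12.1%. An unadjusted edgeR p under 0.05 was reached by 0 of the 7, against 23% of all gene models. The libraries of shIrf3 and shLuc overlapped in all 7 members, while in 24.3% of all gene models they did not. The log2 fold changes ran from -0.32 to 0.38, with a median of -0.10 against -0.02 over all gene models.

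For uc007kog.1 the level was 5.57, 8.49 and 5.27 CPM in shIrf3, against 5.01, 12.6 and 6.70 CPM in shLuc, so replicate 2 was the highest in both groups. Its log2 fold change was -0.32 with a 95% interval from -0.99 to 0.35 (edgeR adjusted p = 0.59). For uc007kod.2 it was 1.95, 5.47 and 1.96 CPM in shIrf3, against 2.32, 4.71 and 3.85 CPM in shLuc, with a log2 fold change of -0.18 and a 95% interval from -1.02 to 0.67 (edgeR adjusted p = 0.836). The level of uc007kob.1 was 6.24, 9.23 and 6.59 CPM in shIrf3, against 8.62, 9.27 and 8.07 CPM in shLuc (log2 fold change -0.23, edgeR adjusted p = 0.397). The low-count uc007koh.1 had 4, 8 and 2 counts in shIrf3, against 4, 5 and 2 in shLuc (log2 fold change 0.38, edgeR adjusted p = 0.763). Single libraries moved these values. Without shIrf3 replicate 2 the log2 fold change was -0.89 for uc007kod.2 (edgeR adjusted p = 0.0653), -0.58 for uc007kog.1 (0.377), -0.43 for uc007kob.1 (0.11) and -0.13 for uc007koh.1 (0.949). Without shLuc replicate 2 it was 0.07 for uc007kod.2 (edgeR adjusted p = 0.933) and 0.16 for uc007kog.1 (0.639), so no direction is given for these. A further alternative, chosen after the data were seen, left out replicate 2 of both groups, and 0 of 7 members were called there too, against 9% of all gene models, with a log2 fold change of -0.64 for uc007kod.2 (edgeR adjusted p = 0.113). Intervals of this width do not show that the groups were alike.

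Under LPS, the comparison of hairpins gave 1 called member, which was lower in shIrf3_LPS than in shLuc_LPS. Of the 7 members 0 were called higher and 1 lower, against 4.9% of all gene models called higher and 3.31% called lower. This member, uc007koe.1, was at 1.31, 1.01 and 0.958 CPM in shIrf3_LPS, against 2.06, 1.81 and 2.40 CPM in shLuc_LPS. The groups did not overlap, as was so for 17.3% of all gene models in this direction. It fell by 0.92 on the log2 scale, with a standard error of 0.24 (edgeR adjusted p = 0.0245). The values rest on 41, 26 and 23 counts in shIrf3_LPS, against 60, 57 and 70 counts in shLuc_LPS. The call ended without shIrf3_LPS replicate 2 (log2 fold change -0.86, edgeR adjusted p = 0.0763), shIrf3_LPS replicate 3 (-0.84, 0.109), shLuc_LPS replicate 1 (-0.91, 0.0624) and shLuc_LPS replicate 3 (-0.81, 0.118). Without LPS, the same member was at 0.748, 1.59 and 1.39 CPM in shIrf3, against 1.26, 1.44 and 1.37 CPM in shLuc, with a log2 fold change of -0.10 and a 95% interval from -0.62 to 0.42.

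The level of uc007kob.1 was 10.8, 9.41 and 13.4 CPM in shIrf3_LPS, against 8.19, 8.20 and 8.68 CPM in shLuc_LPS. Every shIrf3_LPS library was above every shLuc_LPS library, as was so for 17.7% of all gene models. The log2 fold change of 0.42 was not called (edgeR adjusted p = 0.096), and it was called at 0.41 when the fit held the 6 libraries compared alone (edgeR adjusted p = 0.0175), where 19.4% of all gene models were called. The levels of uc007kog.1 were 17.2, 17.2 and 17.3 CPM in shIrf3_LPS, against 18.1, 14.5 and 16.02 CPM in shLuc_LPS. These groups overlapped, with a log2 fold change of 0.09 and a 95% interval from -0.51 to 0.69 (edgeR adjusted p = 0.903). For uc007kod.2 the values were 7.39, 7.23 and 8.20 CPM in shIrf3_LPS, against 6.03, 5.85 and 7.61 CPM in shLuc_LPS, which also overlapped (log2 fold change 0.23, edgeR adjusted p = 0.774). The other 3 members had log2 fold changes from -0.14 to 0.24 and were not called.

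The LPS response was next taken within each hairpin. In shIrf3 cells 2 of the 7 members were called higher with LPS and 0 lower, against 4.17% of all gene models called higher and 3.84% called lower. In 4 of the 7 every library with LPS was above every library without it, against 17.3% of all gene models in that direction. The median log2 fold change was 0.59 over the members and 0.00 over all gene models.

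In shIrf3_LPS uc007kog.1 was at 17.2, 17.2 and 17.3 CPM, against 5.57, 8.49 and 5.27 CPM in shIrf3. It rose by 1.41 on the log2 scale, with a standard error of 0.29, or 2.65-fold higher (edgeR adjusted p = 0.0137). The member uc007kob.1, at 10.8, 9.41 and 13.4 CPM with LPS, against 6.24, 9.23 and 6.59 CPM without, rose by 0.59 with a standard error of 0.15 (edgeR adjusted p = 0.0188). Both calls ended without shIrf3 replicate 1 (log2 fold changes 1.31 and 0.49, edgeR adjusted p = 0.0677 and 0.106) and without shIrf3 replicate 3 (1.28 and 0.52, edgeR adjusted p = 0.0638 and 0.101). That of uc007kob.1 also ended without shIrf3_LPS replicate 3 (0.45, edgeR adjusted p = 0.112).

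For uc007kod.2 the level was 7.39, 7.23 and 8.20 CPM in shIrf3_LPS, against 1.95, 5.47 and 1.96 CPM in shIrf3. The groups did not overlap, and shIrf3 replicate 2 lay nearest to the LPS libraries. The log2 fold change of 1.25 was not called (edgeR adjusted p = 0.0608). Without shIrf3 replicate 2 it was 1.95 with an edgeR adjusted p of 0.000134, and DESeq2 called it with all libraries at 1.27 (DESeq2 adjusted p = 0.0267). It was also called without shLuc replicate 1 or 2, at 1.24 in both (edgeR adjusted p = 0.0363 and 0.0473), where 12.3% and 14.7% of all gene models were called. These libraries are in neither group compared, but enter the shared spread, scaling and filter. No other left-out library gave a call for uc007kod.2. Its value was 1.01 without shIrf3 replicate 1 (edgeR adjusted p = 0.172), 0.997 without shIrf3 replicate 3 (0.172) and 1.27 without shIrf3_LPS replicate 1 (0.134). With the libraries compared alone it was 1.24 and not called (edgeR adjusted p = 0.133). The level of uc007koe.1 overlapped between the groups, with a log2 fold change of -0.20 (edgeR adjusted p = 0.725) that was 0.03 without shIrf3 replicate 2 (0.978). In uc007koh.1 there were 17, 10 and 6 counts in shIrf3_LPS, against 4, 8 and 2 in shIrf3, or 0.541, 0.389 and 0.250 CPM against 0.166, 0.259 and 0.0753 CPM. These groups overlapped through shIrf3 replicate 2, and the log2 fold change of 1.22 was not called (edgeR adjusted p = 0.137). In uc007kny.1 the LPS libraries, at 2.74, 3.23 and 2.92 CPM, were above the others, at 1.95, 2.49 and 2.45 CPM, with a log2 fold change of 0.36 that was not called (edgeR adjusted p = 0.31).

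In the shLuc cells LPS gave 1 called member of 7, higher, and 0 lower, against 4.27% of all gene models called higher and 4.45% called lower. In 4 of the 7 the LPS libraries were all above the others, against 10.6% of all gene models. The called member was the low-count uc007koh.1, with 17, 13 and 10 counts in shLuc_LPS, against 4, 5 and 2 in shLuc. These are 0.583, 0.413 and 0.343 CPM with LPS, against 0.136, 0.176 and 0.0762 CPM without. The log2 fold change was 1.74 with a standard error of 0.48 (edgeR adjusted p = 0.033). DESeq2 gave it no adjusted p, and the call ended without shLuc_LPS replicate 1 (1.49, edgeR adjusted p = 0.144), shLuc_LPS replicate 2 (1.79, 0.0702), shLuc replicate 1 (1.77, 0.0582) and shLuc replicate 3 (1.49, 0.1).

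Its overlapping partner uc007kog.1 was at 18.1, 14.5 and 16.02 CPM in shLuc_LPS, against 5.01, 12.6 and 6.70 CPM in shLuc. The groups did not overlap, and shLuc replicate 2 came closest to the LPS libraries. The log2 fold change of 1.0, with a 95% interval from 0.37 to 1.63, was just above the threshold (edgeR adjusted p = 0.0571), and DESeq2 called it (DESeq2 adjusted p = 0.0214). Without shLuc replicate 2 it was 1.46 (edgeR adjusted p = 0.000135), and without shIrf3 replicate 2, which is in neither group compared, 1.0 (edgeR adjusted p = 0.0447). No other left-out library gave a call. The value was 0.75 without shLuc replicate 1 (edgeR adjusted p = 0.0769), 0.88 without shLuc replicate 3 (0.139) and 0.90 without shLuc_LPS replicate 1 (0.174). The partners moved alike over the 12 libraries of this arm, with a Pearson correlation of log2 CPM of 0.844. Reads of the longer and more abundant uc007kog.1 could enter the count of uc007koh.1, since strand was not marked, and their part in its result was not tested.

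The level of uc007kod.2 was 6.03, 5.85 and 7.61 CPM in shLuc_LPS, against 2.32, 4.71 and 3.85 CPM in shLuc, with no overlap. The log2 fold change of 0.84 was not called (edgeR adjusted p = 0.199), and was called at 0.84 without shIrf3 replicate 2 (edgeR adjusted p = 0.0133). That library is in neither group compared, and no other left-out library gave a call. The value was 0.61 without shLuc replicate 1 (edgeR adjusted p = 0.341), 1.07 without shLuc replicate 2 (0.125) and 0.71 without shLuc_LPS replicate 3 (0.452). Here uc007koe.1 was at 2.06, 1.81 and 2.40 CPM with LPS, against 1.26, 1.44 and 1.37 CPM without, again with no overlap and no call (log2 fold change 0.62, edgeR adjusted p = 0.111). The groups overlapped in uc007kob.1, at 8.19, 8.20 and 8.68 CPM with LPS, against 8.62, 9.27 and 8.07 CPM without. Its log2 fold change of -0.05 had a 95% interval from -0.36 to 0.26 and was 0.04 with library totals as the only scaling, so its direction is not given. With replicate 2 of shIrf3 and shLuc both left out, an alternative chosen after the data were seen, edgeR called 3 of 7 members higher with LPS in shLuc cells, at 1.47 for uc007kog.1, 1.09 for uc007kod.2 and 2.0 for uc007koh.1, against 12.3% of all gene models called. The same alternative called 3 in shIrf3 cells, at 1.67 for uc007kog.1, 1.95 for uc007kod.2 and 0.80 for uc007kob.1, against 10.1% of all. Both libraries left out held the highest levels of these members in their groups. Leaving them out therefore raises the LPS difference of these members by construction, and the added calls are no support for an LPS response.

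**Figure D5:**
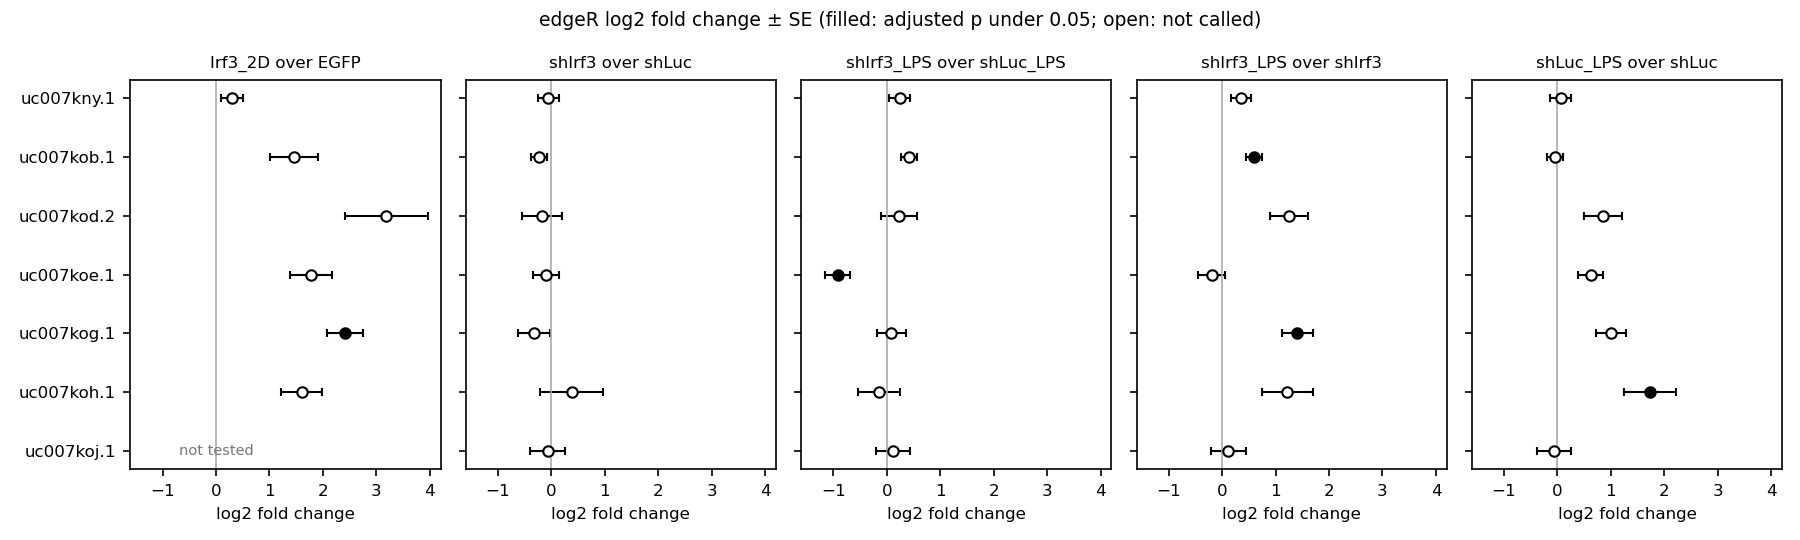
Log2 fold change with its standard error for each gene model (rows) in 5 comparisons (panels), from edgeR. Filled points were called at an adjusted p under 0.05. They are uc007kog.1 for Irf3_2D over EGFP, uc007koe.1 for shIrf3_LPS over shLuc_LPS, uc007kob.1 and uc007kog.1 for shIrf3_LPS over shIrf3, and uc007koh.1 for shLuc_LPS over shLuc.

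Whether the LPS response itself differed between hairpins was tested by the interaction, the response in shIrf3 cells minus that in shLuc cells. In edgeR 0 of the 7 members were called, against 0% of all gene models, and in DESeq2 0 of the 4 that got an adjusted p, against 0.127%. No member was called in any alternative run. At an unadjusted edgeR p under 0.05 there were 2 of 7, against 5.66% of all gene models. The difference was 0.65 for uc007kob.1, whose response was 0.59 in shIrf3 cells and -0.05 in shLuc cells (95% interval of the difference 0.20 to 1.09, edgeR adjusted p = 0.769). It was -0.82 for uc007koe.1, whose response was -0.20 in shIrf3 cells and 0.62 in shLuc cells (95% interval -1.54 to -0.09, edgeR adjusted p = 0.822). For uc007kog.1 it was 0.41 (95% interval -0.49 to 1.31, edgeR adjusted p = 0.976) and for uc007kod.2 0.40 (95% interval -0.72 to 1.52, edgeR adjusted p = 0.994). Without shIrf3 replicate 2 the difference was 1.11 for uc007kod.2 (edgeR adjusted p = 0.768) and 0.67 for uc007kog.1 (0.999), and without shLuc replicate 2 it was 0.17 (0.917) and -0.05 (0.943). For uc007koh.1, called in shLuc cells alone, the response was 1.22 in shIrf3 cells and 1.74 in shLuc cells, and their difference was -0.52 (95% interval -2.02 to 0.98, edgeR adjusted p = 0.997). A different LPS response was thus not shown for any member, and these intervals leave room for differences of about the size of the responses.

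The remaining member uc007koj.1 stayed low throughout, with 14, 15 and 10 counts in shIrf3_LPS, 11, 17 and 12 in shLuc_LPS, 10, 11 and 15 in shIrf3 and 11, 12 and 16 in shLuc. All of these groups overlapped, and the means were 0.482 ± 0.0889 CPM in shIrf3_LPS, 0.443 ± 0.0859 in shLuc_LPS, 0.446 ± 0.107 in shIrf3 and 0.469 ± 0.124 in shLuc (SD, n = 3). None of its contrasts was called, with 95% intervals from -0.76 to 0.62 for knockdown without LPS and from -0.58 to 0.81 for LPS in shIrf3 cells. These intervals do not show that its level was unchanged, and the part of its few counts in this was not tested. Of uc007kny.1 the shLuc_LPS libraries had 2.26, 2.26 and 2.98 CPM, against 2.21, 1.90 and 3.12 CPM in shLuc, which overlapped. Its 4 group means in this arm ran from 2.30 to 2.96 CPM, and no contrast of it was called.

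Members of the segment varied together to different degrees. Over the 12 libraries, the Pearson correlation of log2 CPM was 0.932 between uc007kod.2 and uc007kog.1, 0.767 between uc007kob.1 and uc007kod.2 and 0.644 between uc007kob.1 and uc007kog.1. With uc007koe.1 these 3 had correlations of -0.03, 0.352 and 0.323, for uc007kob.1, uc007kod.2 and uc007kog.1 in that order. The libraries share groups and scaling, so the values are descriptions. Outside the segment, the 2 gene models most like the mean standardised profile of the 7 members over these 12 libraries were uc007zbs.2 on chromosome 16 (chr16:35832964-35871468, 15 exons, Pearson's r = 0.961) and uc008oln.1 on chromosome 2 (chr2:180962320-180976732, 20 exons, r = 0.94). In the other arm, which did not enter that choice, uc007zbs.2 was at 158, 156 and 138 CPM in Irf3_2D, against 68.0, 29.9 and 27.1 CPM in EGFP (log2 fold change 1.85, edgeR adjusted p = 0.0287). There too EGFP replicate 1 was the highest of its group. The second, uc008oln.1, was at 102, 44.0 and 86.1 CPM in Irf3_2D, against 36.8, 18.7 and 9.54 CPM in EGFP (log2 fold change 1.83, edgeR adjusted p = 0.13), with Irf3_2D replicate 2 the lowest of its group as in uc007kob.1.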

How the data were processed

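Per the submitters' processing notes, genome build mm9 was used, with edgeR, featureCounts 1.4.6, SAMtools 0.1.19, Picard 2.2.4, TopHat2 2.0.14 and bcl2fastq 2.17.1.14. Their settings were not stated. The table that the authors deposited holds raw counts, whole numbers of reads for each gene model with no normalization. RNA was depleted of ribosomal RNA and prepared with the TruSeq RNA kit v2, per the labels' protocols, and this kit leaves strand unmarked. Exon length stands beside the counts, per the file headers.

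Low counts were removed with filterByExpr by group and libraries scaled by TMM. The test was glmQLFTest after a robust glmQLFit (edgeR 4.0.16, R 4.3.3), and p-values were adjusted by Benjamini-Hochberg over every gene model tested, with 0.05 as the threshold. The Irf3_2D and EGFP arm (6 libraries) and the 4 groups of the other arm (12 libraries) were fitted separately. A standard error is the size of the log2 fold change over the root of its F statistic, and intervals are at 95%. Log2 CPM used a prior count of 2. No member was at 0 counts in any library. Every pair of replicates differed beyond sampling noise (18 pairs, smallest chi-square per degree of freedom 3.38). The edgeR step was tested on simulated data. Alternatives were DESeq2 1.42.0, other scalings and filters, a replicate block, the compared libraries alone and each library left out. All members were accounted for, and those past the filter in either arm were given by library. The members and lists were chosen with earlier results of these data known. Lists that need gene symbols were not used.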

Additional observations from a re-analysis of the deposited data

How the results depend on the processing

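No log2 fold change with an unadjusted p under 0.05 reversed its direction under any alternative run for it. The number of members called in the overexpression comparison, 1 with edgeR, was 3 with DESeq2 (3.45% of all gene models called), 2 with no low-count filter (1.33%) and 3 with the replicate block (1.69%). With each library left out in turn it ran from 0 to 4 (0.0351% to 7.18%). For knockdown with LPS, 1 (8.2% of all gene models) became 2 both with the 6 libraries compared alone (19.4%) and without replicate 2 of shIrf3 and shLuc together (13.4%). It ran from 0 to 1 with libraries left out (3.53% to 14.8%). For LPS in shLuc cells, 1 (8.72%) became 2 with the replicate block (9%) and 3 without both replicates 2 (12.3%). Those replicates were the highest of their groups for several members, so that rise is no support. It was 0 with the 6 libraries compared alone (4.58%), where uc007koh.1 was under the filter. It ran from 0 to 3 with libraries left out (5.3% to 14%). The count stayed at 1 with DESeq2 (11.1%) and with a filter of at least 1 CPM in 3 libraries (10.2%), but the member called there was uc007kog.1. Its adjusted p was 0.0214 in DESeq2 and 0.0418 in edgeR with that filter. In both, uc007koh.1 got no adjusted p. For LPS in shIrf3 cells, 2 (8.01%) ran from 0 to 3 with libraries left out (4.63% to 14.7%) and was 2 to 3 otherwise (5.53% to 20%). Knockdown without LPS and the interaction stayed at 0 in every alternative run. RLE scaling and library totals moved none of these counts, and the cause of the other moves was not tested. Same-numbered replicates did not deviate together (correlations of their deviations from -0.258 to 0.297, and 0 comparisons with all pairs over 0.1), so the numbers are not taken to pair the libraries. Few counts underlie the values of uc007koh.1 and uc007koj.1, which held 165 and 193 over all 18 libraries.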
